A study of Mus musculus with 7 samples.

Results

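Aggrecan, versican, brevican and neurocan are the hyalectans, large secreted proteoglycans that bind hyaluronan at one end and carry chondroitin sulfate chains along the middle of the core protein. The hyaluronan and proteoglycan link proteins, encoded by *Hapln1* to *Hapln4*, clamp the hyalectan head onto hyaluronan and stabilise the aggregate. Aggrecan is best known from cartilage, versican from soft tissue and vessel wall, and brevican and neurocan from the nervous system. In large arteries aggrecan and versican fill the space between elastic layers and smooth muscle cells, and metalloproteinases of the ADAMTS and MMP families cut them. All 8 genes of the family were taken by their Ensembl identifiers from the deposited count table of 47729 genes, and all 8 were present in it.

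RNA was sequenced from aorta tissue of Mmp19-/- mice (KO, 3 libraries) and wild-type mice (WT, 4 libraries). The product of *Mmp19* is a matrix metalloproteinase released from cells, which the title of the series places in an axis with aggrecan and Wnt in aneurysm and dissection of the thoracic aorta. The labels give no age, sex, strain, allele, treatment or aortic segment, and they do not say whether a library is 1 mouse or a pool, so p-values measure the spread between libraries, which may be technical. KO throughout means the library labelled KO.

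Totals ran from 71061475 to 76926790 estimated counts in KO and from 68151472 to 75132809 in WT. *Mmp19* itself read 25.5, 12.0 and 15.9 CPM in KO replicates 1, 2 and 3, and 24.8, 24.8, 20.7 and 34.7 CPM in WT replicates 1 to 4, where CPM is the count scaled to a library size adjusted by trimmed means (TMM). The difference, -0.56 on the log2 scale with an SE of 0.29, did not pass edgeR's quasi-likelihood test (adjusted p = 0.368), and the WT range held KO replicate 1. The gene count therefore does not check the labels, and which exons its reads cover is not known. The summed smooth muscle markers were at 3532 to 13820 CPM in KO and 18350 to 20290 CPM in WT, so the tissue carried its defining cell type in every library. KO replicate 1 stood apart, with the lowest smooth muscle sum and the highest macrophage sum (3717 CPM, against 688 and 1201 CPM in the other KO libraries and 328 to 545 CPM in WT). WT replicate 3 also stood apart, with 1286 CPM of summed neuron markers, against 5.80 to 13.02 CPM in the other WT libraries and 10.2 to 100.1 CPM in KO. Striated muscle markers were at 644 and 733 CPM in KO replicates 1 and 2, against 18.9 CPM in KO replicate 3 and 20.01 to 103 CPM in WT. In whole tissue, fewer cells of a type and less RNA per cell cannot be told apart.

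In the mouse genome each hyalectan gene lies beside 1 link protein gene, with no annotated gene between them in GENCODE M21 on GRCm38. *Acan* (chromosome 7, 79053483 to 79115099, plus strand) and *Hapln3* (79115102 to 79131018, minus strand) meet tail to tail with 2 bases between them. *Vcan* (chromosome 13, 89655312 to 89742509, minus strand) lies 43.7 kb from *Hapln1* (89539796 to 89611652, plus strand). *Ncan* (chromosome 8, 70093085 to 70120873, minus strand) lies 2.22 kb from *Hapln4* (70083457 to 70090862, plus strand), and *Bcan* (chromosome 3, 87987531 to 88000230) lies 21.5 kb from *Hapln2* (88021750 to 88027583), both on the minus strand. The strand setting of the counting is not given in the sources used here, so reads that run past the end of *Acan* could count for *Hapln3*, and the antisense gene *Gm4117* inside *Vcan* (194 to 391 counts per library) cannot be separated from it without strand.

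The promoters of both neighbour pairs that hold a gene of the wall, *Acan* with *Hapln3* and *Vcan* with *Hapln1*, are shown because they hold both abundant hyalectans of the aorta and the link protein gene beside each. The sequences are those of RefSeq on GRCm38.p6, from 250 bases before to 50 bases after the RefSeq start, written along the strand of the gene. They are *Acan* chr7:79052976-79053275 (plus strand), *Vcan* chr13:89742463-89742762 (minus strand), *Hapln3* chr7:79130969-79131268 (minus strand) and *Hapln1* chr13:89540386-89540685 (plus strand). The RefSeq start can differ from that of GENCODE. The *Acan* window ends before the GENCODE gene, which starts at 79053483. The *Hapln1* window lies inside the GENCODE gene, which starts at 89539796. Capitals mark matches on either strand to the motifs searched in all 4, which were the TCF/LEF core CTTTGA or CTTTGT, the SOX core ACAAT, the AP-1 site TGANTCA, the TATA box TATAAA, the CArG box, the CCAAT box CCAAT and the GC box GGGCGG.
Acan: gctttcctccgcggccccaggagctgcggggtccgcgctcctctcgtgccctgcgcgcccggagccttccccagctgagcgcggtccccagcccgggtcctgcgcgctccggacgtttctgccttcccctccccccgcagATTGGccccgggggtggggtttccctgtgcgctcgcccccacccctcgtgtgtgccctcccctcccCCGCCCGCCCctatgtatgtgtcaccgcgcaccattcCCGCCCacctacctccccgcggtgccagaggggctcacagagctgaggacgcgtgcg
Vcan: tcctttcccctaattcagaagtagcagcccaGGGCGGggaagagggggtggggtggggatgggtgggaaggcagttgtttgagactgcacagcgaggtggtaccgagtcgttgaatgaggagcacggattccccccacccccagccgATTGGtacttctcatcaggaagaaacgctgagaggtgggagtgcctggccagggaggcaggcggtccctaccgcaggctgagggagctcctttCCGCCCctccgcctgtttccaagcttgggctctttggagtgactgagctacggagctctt
Hapln3: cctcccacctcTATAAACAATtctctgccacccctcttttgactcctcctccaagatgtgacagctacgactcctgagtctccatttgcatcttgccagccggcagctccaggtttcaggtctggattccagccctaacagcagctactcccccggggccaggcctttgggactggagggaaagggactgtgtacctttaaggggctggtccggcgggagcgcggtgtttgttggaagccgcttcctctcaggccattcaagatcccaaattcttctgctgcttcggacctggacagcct
Hapln1: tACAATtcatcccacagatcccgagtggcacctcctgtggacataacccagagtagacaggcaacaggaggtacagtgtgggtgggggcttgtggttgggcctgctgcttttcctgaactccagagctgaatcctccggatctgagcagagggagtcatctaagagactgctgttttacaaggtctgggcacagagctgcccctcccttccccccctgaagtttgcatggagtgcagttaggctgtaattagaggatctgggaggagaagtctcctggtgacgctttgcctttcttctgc

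*Acan* and *Vcan* each held a CCAAT box read on the opposite strand, at bases -110 to -106 and -103 to -99 from the RefSeq start, and GC boxes. *Hapln1* and *Hapln3* held neither of these and 1 SOX core each, which in *Hapln3* overlaps a TATA box at bases -239 to -234. None of the 4 windows held the TCF/LEF core, the AP-1 site or the CArG box in these letters. Of 32851 RefSeq promoters of this length, 37.4% held the CCAAT box, 35.7% the GC box, 31.0% the SOX core, 31.2% the TCF/LEF core, 13.6% the TATA box, 7.81% the AP-1 site and 1.63% the CArG box. The CCAAT and GC boxes were added to the search after the sequences had been read. The GC content was 74.0% for *Acan*, 61.0% for *Vcan*, 57.0% for *Hapln3* and 54.3% for *Hapln1*, against a median of 52.7% over all promoters.

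Versican and aggrecan made up nearly all hyalectan message in the aorta, and the share of aggrecan was larger in KO than in WT. Aggrecan was 45.5 ± 2.53% of length-scaled hyalectan transcripts in KO (SD, n = 3) and 27.5 ± 1.57% in WT (SD, n = 4), and versican 53.7 ± 2.78% in KO and 69.3 ± 2.83% in WT. Levels of different genes are compared as CPM per kilobase (kb) of merged exons. On that scale *Vcan* averaged 15.9 ± 6.06 in KO and 11.3 ± 3.42 in WT, and *Acan* 13.3 ± 3.88 in KO and 4.55 ± 1.56 in WT. Every WT library read lower for *Acan* (2.97 to 6.63) than any WT library did for *Vcan* (8.41 to 16.0), whereas in KO the ranges overlapped (10.2 to 17.6 for *Acan* and 12.3 to 22.9 for *Vcan*).

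The link proteins and the neural hyalectans were far below. *Hapln1*, the link protein of cartilage and heart valves, came next in both groups, at 0.510 ± 0.265 CPM per kb in KO and 0.807 ± 0.381 in WT. In KO *Hapln4* followed at 0.261 ± 0.195 CPM per kb, then *Bcan*, *Hapln3* and *Ncan* at 0.106 ± 0.0525, 0.0985 ± 0.0403 and 0.0973 ± 0.0879. In WT the order was *Bcan* (0.284 ± 0.242 CPM per kb), *Ncan* (0.203 ± 0.160), *Hapln3* (0.188 ± 0.0458) and *Hapln4* (0.107 ± 0.0404). From *Hapln1* down, each member overlapped the next one in this order, so these places are not separated by the spread. *Hapln2* was last in both groups, overlapping *Ncan* in KO and lying below every *Hapln4* value in WT. The length is that of all annotated exons, and versican isoforms that skip the long chondroitin sulfate exons cannot be told from a gene count.

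**Figure D1:**
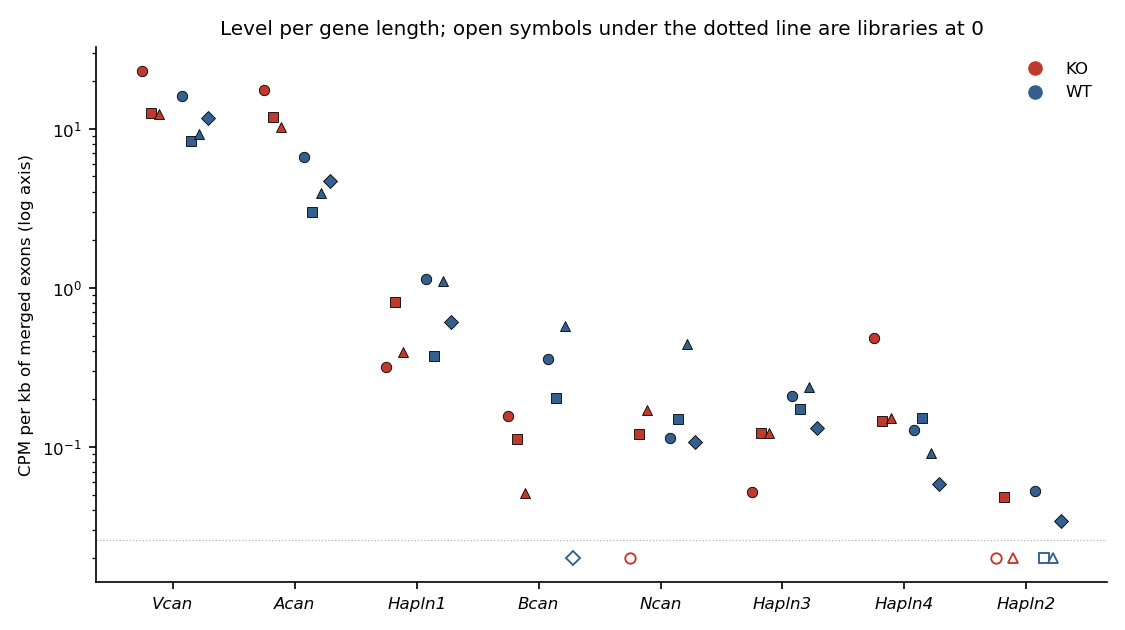
Level of each family member per gene length, as CPM per kilobase of merged exons on a log axis, for 3 KO (red) and 4 WT (blue) libraries, with symbol shape for the replicate number. *Vcan* and *Acan* lie above the other 6 members in every library, *Acan* is higher in every KO library than in any WT library, and open symbols are libraries at 0.

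*Acan*, the aggrecan core protein, read 132, 88.9 and 76.4 CPM in KO replicates 1, 2 and 3, and 49.5, 22.2, 29.2 and 35.2 CPM in WT replicates 1 to 4. The groups did not overlap: the lowest KO library was above the highest WT library, and KO replicate 1 was the highest. The level was 2.91-fold higher in KO (log2 fold change 1.54, SE 0.30, 95% interval 0.85 to 2.23), which did not pass the correction over 19188 genes (edgeR quasi-likelihood, adjusted p = 0.165). The exact 2-sided permutation p was 0.0286, the smallest that 35 splits of 7 libraries can give. The call came with DESeq2 (adjusted p = 0.000227) and in edgeR without KO replicate 2 (log2 fold change 1.67, adjusted p = 0.0478), and without KO replicate 1, the library with the most macrophage message, the log2 fold change was 1.28 (edgeR, adjusted p = 0.285).

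*Vcan*, the versican core protein, read 331, 181 and 178 CPM in KO replicates 1, 2 and 3, and 232, 122, 134 and 169 CPM in WT replicates 1 to 4. KO replicate 1 was the highest of all libraries, while KO replicates 2 and 3 lay between WT replicates 4 and 1. The difference was 0.49 on the log2 scale (SE 0.30, 95% interval -0.21 to 1.19; edgeR, adjusted p = 0.447), and the exact 2-sided permutation p was 0.2. Without KO replicate 1 the log2 fold change was 0.13 (edgeR, adjusted p = 0.892), so the size of the *Vcan* difference rests on that library. The macrophage and monocyte marker sums were also highest there (3717 and 723 CPM), and their part in the *Vcan* level was not tested. All 12 macrophage and 6 monocyte markers were detected in every library, but not each was highest in KO replicate 1. *Mertk* was at 79.1 CPM there and 130 CPM in WT replicate 1, and *Plac8* at 23.2 CPM there and 27.1 CPM in KO replicate 3.

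Aggrecan and versican ran in the same order within each group. Among the KO libraries both genes ran in the order replicate 1, 2, 3 from high to low, and among the WT libraries both ran in the order replicate 1, 4, 3, 2. The ratio of *Acan* to *Vcan* per length was 0.770, 0.951 and 0.830 in KO replicates 1, 2 and 3, and 0.413, 0.353, 0.422 and 0.404 in WT replicates 1 to 4. All KO libraries lay far above all WT libraries, and the highest ratio was in KO replicate 2. Smooth muscle and macrophage markers also differed between the groups. Summed striated muscle markers were at 644 and 733 CPM in KO replicates 1 and 2, against 18.9 CPM in KO replicate 3 and 20.01 to 103 CPM in WT. The part of all these markers in the ratio was not tested. The ratio had a coefficient of variation of 10.9% in KO and 7.82% in WT, where *Acan* alone had 29.3% and 34.2% and *Vcan* alone 38.0% and 30.2%. It averaged 0.850 ± 0.0923 in KO (SD, n = 3) and 0.398 ± 0.0311 in WT (SD, n = 4), a 2.13-fold difference of geometric means, given without a test. Because it is formed within a library, the ratio does not depend on how libraries are scaled. It was chosen with the *Acan* levels known, so it is no separate evidence that *Acan* is higher.

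**Figure D2:**
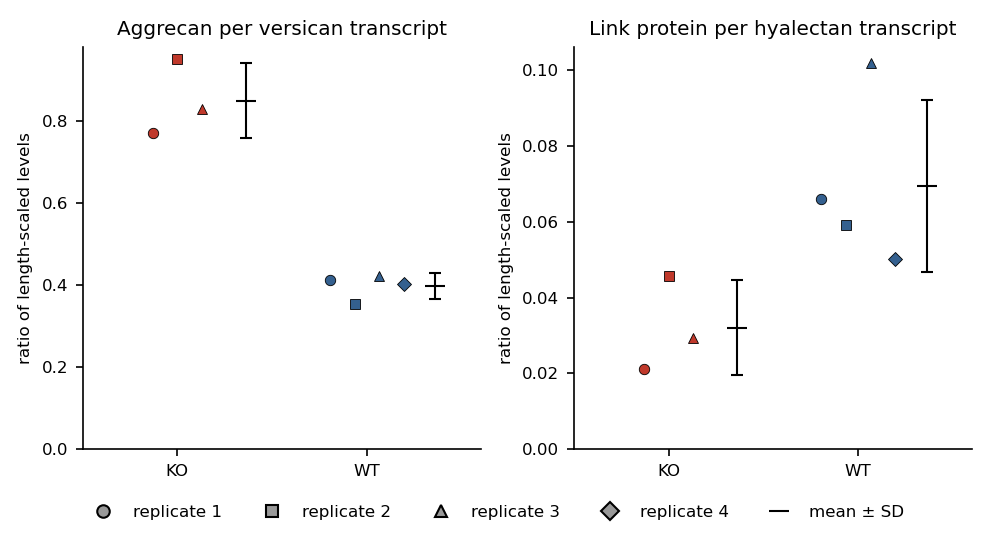
Left, ratio of the length-scaled level of *Acan* to that of *Vcan*, and right, ratio of the summed link proteins to the summed hyalectans, in 3 KO and 4 WT libraries (symbols by replicate number; bars, mean ± SD). The *Acan* to *Vcan* ratio is 0.770 to 0.951 in KO and 0.353 to 0.422 in WT, and the link protein ratio is 0.0211 to 0.0458 in KO and 0.0503 to 0.102 in WT.

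*Hapln3*, the link protein gene next to *Acan*, did not follow its neighbour. It read 0.182, 0.428 and 0.427 CPM in KO replicates 1, 2 and 3, and 0.737, 0.605, 0.832 and 0.462 CPM in WT replicates 1 to 4, with all KO libraries below all WT libraries. These are 15 to 33 counts in KO and 34 to 58 counts in WT. On the log2 scale the difference was -0.93 (SE 0.44, 95% interval -1.95 to 0.09; edgeR, adjusted p = 0.33), and the exact 2-sided permutation p was 0.0571. KO replicate 1 had the most *Acan* and the least *Hapln3* of all libraries, so the counts of the adjoining genes did not rank together.

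*Hapln1*, next to *Vcan*, read 1.88, 4.80 and 2.34 CPM in KO replicates 1, 2 and 3, and 6.72, 2.18, 6.57 and 3.57 CPM in WT replicates 1 to 4. The groups overlapped, since WT replicate 2 lay under 2 of the KO libraries. The difference of -0.66 on the log2 scale did not pass (SE 0.50; edgeR, adjusted p = 0.541). With 155 to 458 counts per library, its 95% interval runs from 0.281 to 1.42 times the WT level.

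*Hapln4*, a link protein of brain synapses, read 1.91 CPM in KO replicate 1 and 0.571 and 0.596 CPM in KO replicates 2 and 3, against 0.501, 0.591, 0.359 and 0.231 CPM in WT replicates 1 to 4. KO replicate 1 held 157 counts, where no other library held more than 46. The difference, 1.28 on the log2 scale (SE 0.56; edgeR, adjusted p = 0.297), was 0.46 without KO replicate 1 (adjusted p = 0.782). *Hapln2*, a link protein of myelinated fibres, had 0, 8 and 0 counts in KO and 8, 0, 0 and 6 counts in WT and was not tested. If each count is a read, the libraries without a count allow up to 0.0365 to 0.0430 CPM (3 counts, counting error only). The limit is higher if a read gives several counts.

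Summed link protein message overlapped between the groups, and so did summed hyalectan message, while their ratio did not. Summed per length, there were 47.5, 21.9 and 34.0 hyalectan transcripts per link protein transcript in KO replicates 1, 2 and 3, and 15.1, 16.9, 9.83 and 19.9 in WT replicates 1 to 4, with no overlap between the groups. The summed hyalectans were at 40.7, 24.7 and 22.8 CPM per kb in KO, and 23.1, 11.7, 14.2 and 16.5 in WT, and the summed link proteins at 0.857, 1.13 and 0.670 in KO and 1.53, 0.693, 1.44 and 0.830 in WT. *Hapln1* was 37.2%, 72.0% and 59.2% of link protein transcripts in KO and 53.4% to 77.2% in WT, and *Hapln4* was 56.7% in KO replicate 1. These sums over the family are given without a test. *Acan* is part of the hyalectan sum, so the ratio is no separate evidence of a change in the link proteins or the family. Its groups also lay close, at 21.9 in KO replicate 2 and 19.9 in WT replicate 4.

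**Figure D3:**
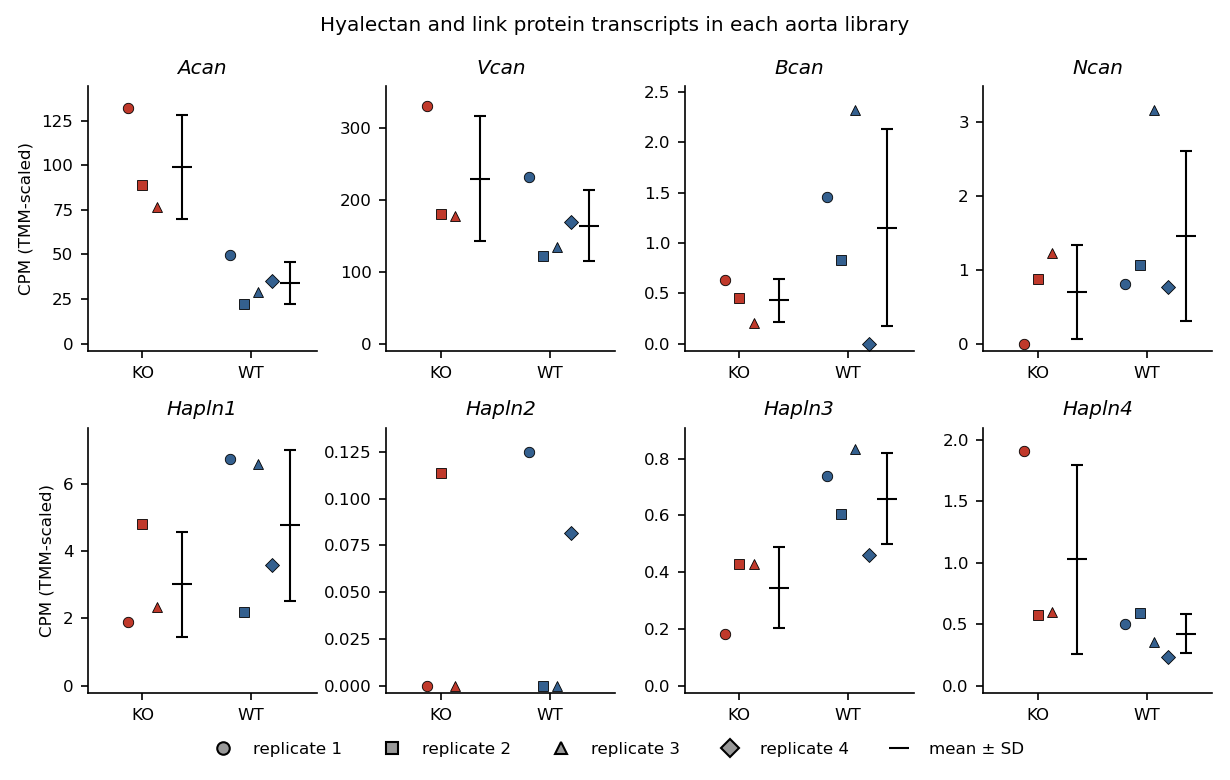
TMM-scaled CPM of the 8 family members in 3 KO (red) and 4 WT (blue) libraries, each panel on its own linear axis from 0, with symbols by replicate number and bars for mean ± SD (none drawn for *Hapln2*, which is at 0 in 4 libraries). *Acan* is higher and *Hapln3* lower in every KO library than in any WT library, while *Bcan* and *Ncan* peak in WT replicate 3 and *Hapln4* in KO replicate 1.

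Brevican and neurocan, the hyalectans of brain matrix, were low and were highest in WT replicate 3, the library with the most neuron transcripts. *Bcan* read 0.632, 0.457 and 0.207 CPM in KO replicates 1, 2 and 3, and 1.46, 0.831, 2.32 and 0 CPM in WT replicates 1 to 4. *Ncan* read 0, 0.871 and 1.23 CPM in KO and 0.815, 1.07, 3.17 and 0.774 CPM in WT. WT replicate 3 was the highest for both genes. In that library 7 of 7 neuron markers were detected, as in KO replicate 3 and WT replicates 1 and 4. *Th* and *Dbh*, enzymes of noradrenaline synthesis, were at 212 and 413 CPM in WT replicate 3. The summed Schwann cell and glia markers reached 499 CPM there, against 48.7 to 169 CPM in KO and 36.7 to 65.6 CPM in the other WT libraries. Not every marker was highest in WT replicate 3. The neuron marker *Rbfox3* was at 0.43 CPM there and 0.658 CPM in WT replicate 1. The glia marker *S100b* was at 10 CPM there, 12 CPM in WT replicate 2 and 15.9 CPM in KO replicate 3. KO replicate 3, with the next highest neuron sum (100.1 CPM), had the most *Ncan* and the least *Bcan* of the KO libraries. The part of neuron and glia transcripts in these levels was not tested. For *Bcan* the difference of -1.41 on the log2 scale (SE 1.27; edgeR, adjusted p = 0.608) was -0.81 without WT replicate 3, and for *Ncan* the difference of -1.06 (SE 1.22; edgeR, adjusted p = 0.696) was -0.34 without it. *Bcan* in WT replicate 4 and *Ncan* in KO replicate 1 had no counts. If each count is a read, this allows up to 0.0407 and 0.0365 CPM (counting error only), and more if a read gives several counts.

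Of the 8 members 7 passed the filter on low counts (0.137 CPM in at least 3 libraries), and edgeR called 0 of these 7, where it called 0.0156% of all genes tested. At an unadjusted p under 0.05 there was 1 member, *Acan*, against 17.2% of all genes. DESeq2 called *Acan* alone, against 9.53% of all genes it tested, and limma-voom called 0, against 0.0365%. The groups did not overlap for 2 members, against 16.7% of all genes, with *Acan* higher in KO (8.17% of all genes) and *Hapln3* lower (8.56%). The median log2 fold change over the 7 members was -0.66, beside -0.028 over all 19188 genes. With 7 members, counts of 1 or 2 are too few to set the family apart from this background.

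**Figure D4:**
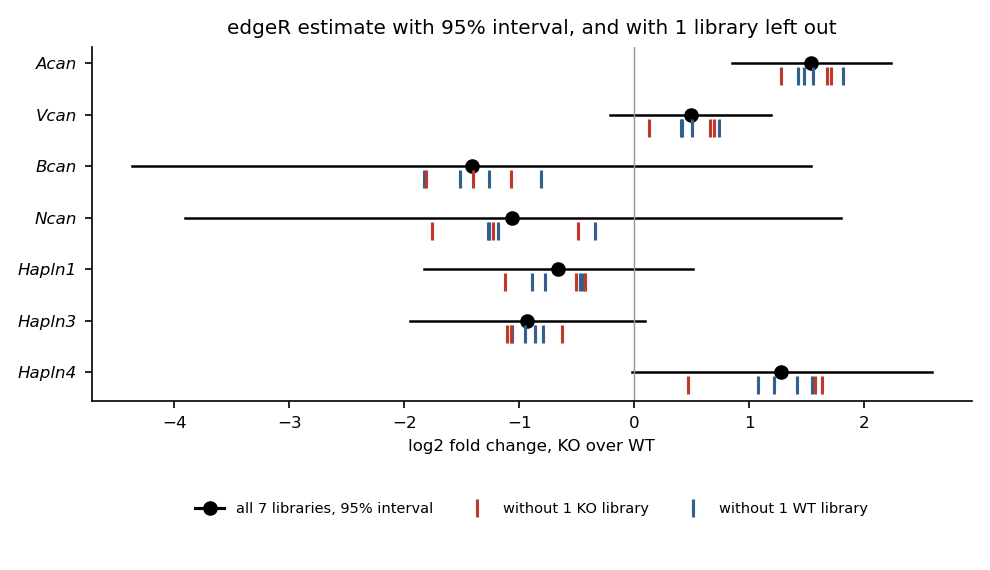
Log2 fold change of KO over WT for the 7 tested members, with edgeR's 95% interval (black) and the estimates with 1 KO (red) or 1 WT (blue) library left out. The interval of *Acan*, 0.85 to 2.23, is the one that lies away from 0, and the estimate for *Vcan* comes down to 0.13 without KO replicate 1.

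By mean absolute difference of centred log2 CPM over the 7 libraries, the genes most like *Acan* among 13545 compared were *Piezo2*, a mechanically gated ion channel, at 0.17, *Thbs2*, thrombospondin 2, at 0.21 and *Srpx2* at 0.22, where the median gene differed by 0.80. *Piezo2* read 49.2, 27.2 and 22.5 CPM in KO and 11.9, 5.18, 9.25 and 10.9 CPM in WT, in the same order within KO as *Acan*. The genes most like *Vcan* were *Col1a1* and *Col3a1*, the chains of type I and type III collagen, and *Piwil2*, each at 0.08, against a median of 0.42. *Col1a1* read 9720, 4910 and 4930 CPM in KO and 7220, 3500, 4260 and 4510 CPM in WT. *Acan* and *Vcan* differed from each other by 0.53, which placed *Vcan* at rank 695 in likeness to *Acan* and *Acan* at rank 9715 in likeness to *Vcan*, farther from *Vcan* than the median gene. These likenesses are descriptions over 7 libraries that share their groups and marker differences.

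Around the hyalectans, genes of hyaluronan turnover and of matrix cleavage were higher in KO more often than those of chondroitin sulfate synthesis, by counts without a test of the difference. No gene of the 5 pathway lists passed edgeR's adjusted test, so what follows gives levels and counts at an unadjusted p under 0.05, which 9.92% of all genes reached upward and 7.27% downward, and DESeq2's calls, which were 6.24% upward and 3.30% downward. Of 25 chondroitin sulfate genes 2 were higher and 2 lower at that p (median log2 fold change -0.00069), and DESeq2 called 2 higher and 1 lower. *Dse*, the epimerase that turns chondroitin into dermatan sulfate, read 111, 63.9 and 61.6 CPM in KO and no more than 52.6 CPM in WT, with no overlap. *Chst11*, a chondroitin 4-O-sulfotransferase, read 73.3, 35.4 and 63.0 CPM in KO and 22.8 to 40.1 CPM in WT. *Chst3*, a chondroitin 6-O-sulfotransferase, read 18.8, 46.0 and 25.4 CPM in KO and 42.3 to 73.0 CPM in WT, and *Chst12*, another 4-O-sulfotransferase, 32.1 to 42.4 CPM in KO and 43.3 to 52.6 CPM in WT.

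Of 15 genes of hyaluronan, the backbone to which the hyalectans bind, 7 were higher and 1 lower at an unadjusted p under 0.05 (median log2 fold change 0.45, or 0.99 when genes needed 50 counts in 3 libraries), and DESeq2 called 6 higher and 1 lower. *Cemip*, which takes part in hyaluronan breakdown, read 28.8, 2.53 and 11.2 CPM in KO and no more than 0.282 CPM in WT. The hyaluronan synthase *Has1* read 6.19, 1.66 and 6.78 CPM in KO and 0.634 to 1.49 CPM in WT, and *Has2* 15.7, 2.27 and 4.34 CPM in KO and 1.22 to 2.53 CPM in WT. *Hyal1*, a lysosomal hyaluronidase, was lower in each KO library (28.8, 68.8 and 43.5 CPM) than in any WT library (82.6 to 93.8 CPM). The summed level of the list was 1273, 574.9 and 613 CPM in KO replicates 1, 2 and 3 and 452.5 to 602.7 CPM in WT, so the groups overlapped, and without KO replicate 1 the median log2 fold change was 0.295. KO replicate 1 also had the highest macrophage sum (3717 CPM), and the part of macrophage markers in these levels was not tested.

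Among 15 tested genes for proteases that can cut hyalectans, 8 were higher and 1 lower at an unadjusted p under 0.05 (median log2 fold change 0.54), and DESeq2 called 6 higher and 1 lower, while *Mmp7* was at 0 in every library. The aggrecanase *Adamts4* read 39.5, 5.05 and 26.4 CPM in KO and 2.55 to 3.21 CPM in WT. *Mmp12*, the macrophage elastase, read 17.6, 2.97 and 9.41 CPM in KO and 0.439 to 1.38 CPM in WT, and the collagenase *Mmp13* 3.56, 0.857 and 4.78 CPM in KO and 0.253 to 0.473 CPM in WT. *Mmp3*, stromelysin 1, read 55.7, 45.1 and 43.9 CPM in KO and 18.5 to 36.3 CPM in WT. Of the 5 inhibitors, *Timp1* was higher in KO at 217, 25.7 and 70.7 CPM, against no more than 14.9 CPM in WT, and DESeq2 called it. *Timp3*, the main tissue inhibitor of the aggrecanases, overlapped at 643 to 1150 CPM in KO and 922 to 1190 CPM in WT (edgeR, adjusted p = 0.458). *Timp2* overlapped at 626 to 850 CPM in KO and 697 to 977 CPM in WT, and *Reck*, a membrane-anchored inhibitor, at 40.3 to 74.0 CPM in KO and 61.9 to 95.3 CPM in WT. The median log2 fold change of the inhibitors was -0.25. *Adamts4*, *Mmp13*, *Timp1* and *Cemip* were lowest among KO libraries in replicate 2, whereas *Acan* was lowest in replicate 3. The summed proteases overlapped, at 1302, 1142 and 970 CPM in KO replicates 1, 2 and 3 and 583.6 to 1086 CPM in WT, and the part of the macrophage markers, which were also highest in KO replicate 1, was not tested.

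Of 12 tested genes for binding partners of the hyalectans, 8 were higher and 0 lower at an unadjusted p under 0.05 (median log2 fold change 0.82), and DESeq2 called 5 higher and 0 lower. The leading ones are receptors of leukocytes and endothelium. *Tlr2*, a receptor of innate immune cells that binds versican, read 33.7, 13.4 and 22.8 CPM in KO and 6.52 to 10.8 CPM in WT, *Selplg*, the selectin ligand of leukocytes, 57.3, 9.74 and 21.9 CPM in KO and 2.81 to 7.86 CPM in WT, and *Selp*, P-selectin, 38.4, 23.4 and 39.6 CPM in KO and 17.0 to 21.1 CPM in WT. *Matn3*, a cartilage matrilin, read 2.69, 0.857 and 1.76 CPM in KO and 0.100 to 0.784 CPM in WT. Of 12 macrophage markers, 11 were higher at an unadjusted p under 0.05, and their summed level ran from 688 to 3717 CPM in KO and from 328 to 545 CPM in WT. Their part in these levels was not tested.

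**Figure D5:**
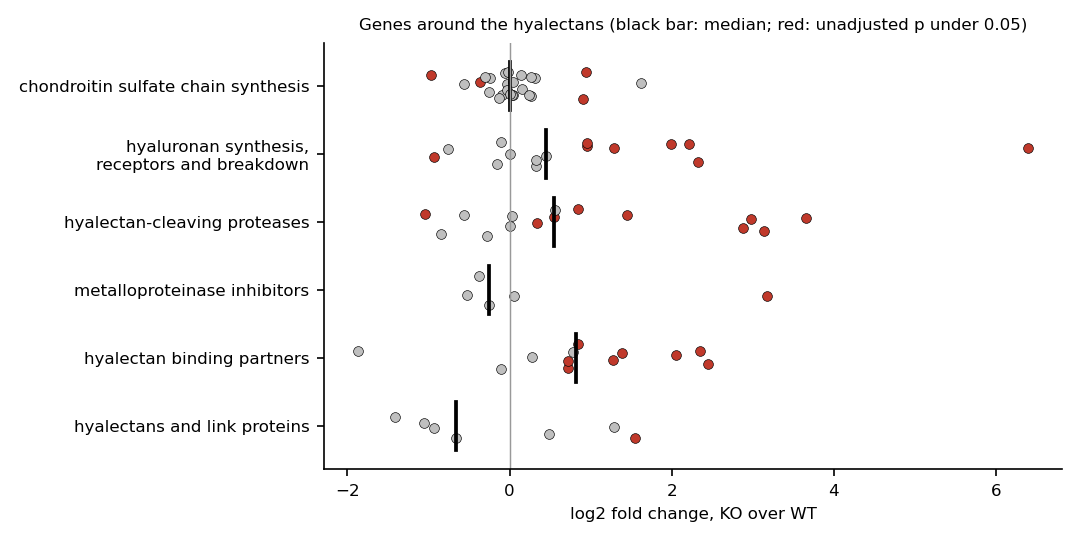
Log2 fold change of KO over WT for each tested gene of the 5 pathway lists and of the hyalectan family (bottom row), with the median of each list as a black bar and genes at an unadjusted p under 0.05 in red. Chondroitin sulfate synthesis centres on -0.00069, hyaluronan turnover on 0.45, proteases on 0.54, inhibitors on -0.25 and binding partners on 0.82.

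Markers of cells that could supply these transcripts moved unequally. The summed fibroblast markers overlapped, at 2466 to 3417 CPM in KO and 2505 to 3271 CPM in WT, but single markers moved in opposite directions. Of 8 fibroblast markers 1 was higher and 2 lower in KO at an unadjusted p under 0.05, each without overlap. *Lum* read 447, 422 and 486 CPM in KO and 139 to 225 CPM in WT. *Scara5* read no more than 123 CPM in KO and 156 to 178 CPM in WT. *Clec3b* read no more than 128 CPM in KO and 154 to 192 CPM in WT. Summed adipocyte markers overlapped at 1924 to 5217 CPM in KO and 2386 to 4616 CPM in WT. Endothelial markers overlapped at 899 to 1528 CPM in KO and 1490 to 1603 CPM in WT. Monocyte markers were at 141 to 723 CPM in KO and 88.7 to 139 CPM in WT. Of 9 smooth muscle markers 7 were lower in KO at an unadjusted p under 0.05, with a median log2 fold change of -1.02, and their part in the *Acan* level was not tested. The 25 cartilage genes other than *Acan* summed to 903, 416 and 450 CPM in KO replicates 1, 2 and 3 and 241 to 368 CPM in WT. Of 24 tested, 10 were higher and 1 lower at an unadjusted p under 0.05 (median log2 fold change 0.65), DESeq2 called 8 higher and 1 lower, and edgeR called *Col10a1* alone. The log2 fold change was above 0 for 15 of the 24, and *Chadl* (-0.77), *Cytl1* (-0.60) and *Chad* (-0.57) were among those below 0. *Col2a1*, the chain of the main cartilage collagen, read 27.5, 6.81 and 8.08 CPM in KO and no more than 1.33 CPM in WT. *Col11a1* (12.7 to 117 CPM in KO and 1.24 to 8.05 CPM in WT) and *Runx2* (4.75 to 18.3 CPM in KO and 1.43 to 2.05 CPM in WT) did not overlap either, while *Matn1* was at 0 in every library but KO replicate 1. *Sox9*, the transcription factor that drives *Acan* in cartilage, read 14.6, 4.28 and 6.29 CPM in KO and 3.04 to 5.11 CPM in WT (edgeR, adjusted p = 0.253), with overlap, and its part in the *Acan* level was not tested. *Sox5* and *Sox6* of the same list also overlapped, with log2 fold changes of -0.24 and -0.41 (edgeR, adjusted p = 0.652 and 0.551).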

How the data were processed

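The deposited file holds gene-level estimated counts of 7 libraries, not scaled between them, judged from the values. Per the labels' protocols, RNA came from a Trizol extraction and libraries from a SMARTER kit. The builds in the submitters' processing notes are GRCm38 and mm10, while the sources used here do not give the aligner, the counter, its annotation or its strand setting. Counts are whole numbers, so rounding left them unchanged. Counts from 8 to 40 at multiples of 4 were 1.09 to 1.41 times as frequent as neighbouring values, so how many reads a count stands for is unknown. Of 47729 identifiers 47224 matched a symbol. No 2 libraries were duplicates. The lowest mean chi-square over genes, 22.5, was between KO replicate 2 and WT replicate 4. KO replicate 2 was at 34.0, 39.9 and 44.6 against WT replicates 1 to 3. Against KO replicates 1 and 3 it was at 163 and 53.4, so by this measure it lay nearer to each WT library than to the other KO libraries. The cause was not tested.

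Genes were filtered with filterByExpr, scaled by TMM and tested with glmQLFit and glmQLFTest (edgeR 4.0.16, R 4.3.3) without covariates on all 7 libraries, which left 19188 genes; p-values were adjusted by Benjamini-Hochberg over all of them (threshold 0.05), with SE and 95% intervals matched to the F statistic. Exact permutation tests used log2 CPM (prior count 2) over 35 splits for the 7 tested members. They were also computed on the log2 of the ratios, shares and family sums, and those p-values are not given here. Alternatives were DESeq2 1.42.0, limma-voom (limma 3.58.1) with quality weights, other scalings and filters, counts divided by 4, a replicate block and each library left out. The fits were tested on simulated data. All 8 members are named, and of each pathway list the 4 genes with the smallest p, plus the 3 genes most like *Acan* and *Vcan*. *Th*, *Dbh*, *Sox9*, *Col10a1*, *Col2a1*, *Col11a1*, *Runx2*, *Matn1*, *Mmp7* and those in the last section were named after their values were seen. So were *Rbfox3*, *S100b*, *Mertk*, *Plac8*, *Lum*, *Scara5*, *Clec3b*, *Sox5*, *Sox6*, *Chad*, *Chadl* and *Cytl1*. Members and lists were chosen with earlier results of these data known.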

Additional observations from a re-analysis of the deposited data

Results flagged for a closer look

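*Ncan* in WT replicate 3, at 3.17 CPM, lay far from the other WT libraries (0.774 to 1.07 CPM). The share of *Hapln4* among length-scaled link protein transcripts in WT replicate 2, at 21.8%, lay far from those of the other WT libraries (6.34% to 8.36%), with 42 counts of *Hapln4* and the lowest summed link proteins of the WT libraries (0.693 CPM per kb). Of 18 measures of the same WT libraries tested in this way 2 stood out. Chance gives about 1 in 20 for separate measures, but these share genes, so that rate does not apply to their count.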

How the results depend on the processing

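The direction of *Acan*, *Vcan*, *Ncan*, *Hapln1*, *Hapln3* and *Hapln4* was the same in each alternative in which they were tested; *Hapln3* and *Hapln4* did not pass the filter of 50 counts in at least 3 libraries. *Bcan* reversed with limma-voom, to a log2 fold change of 1.37 (adjusted p = 0.758); the cause was not tested. Members called were 0 in edgeR and 1, *Acan*, with DESeq2 (log2 fold change 1.57, adjusted p = 0.000227), and 0 to 1 with 1 library left out, the 1 being *Acan* without KO replicate 2. With 1 library left out, the log2 fold change of *Acan* ran from 1.28 to 1.81. Over all genes, edgeR called 3, against 0 without a filter, 7 with the filter of 50 counts, 7 with counts divided by 4 (both test fewer genes), 7 with limma-voom, 1567 with DESeq2, and 0 to 1029 with 1 library left out, the 1029 being without KO replicate 2; the cause was not tested. Replicate numbers are shared between groups, and whether they pair the libraries is not known. Same-numbered libraries correlated at 0.0545, 0.0691 and 0.34 in their deviations from the group means. The 0.34, between both libraries numbered 3, was the highest of all KO and WT pairs, while KO replicates 1 and 2 correlated best with another number. Such correlations cannot exclude that same-numbered libraries were handled together. With the replicate block 0 genes were called, and *Acan* had a log2 fold change of 1.601 (adjusted p = 0.421). Leaving out each library was added for both ratios after seeing the data; their differences stayed between 1.01 and 1.16 (log2) for *Acan* to *Vcan* and between -1.43 and -0.865 for link proteins to hyalectans. At 0 to 8 counts per library, *Hapln2* could not be compared at this depth.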

Other observations

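Further proteoglycan and cartilage genes of the marker list, named after their values were seen, are given here with their values. *Epyc*, epiphycan, a small leucine-rich proteoglycan of growth cartilage, read 10.2, 7.08 and 7.55 CPM in KO replicates 1, 2 and 3, against 3.43, 4.21, 2.14 and 1.91 CPM in WT replicates 1 to 4 (log2 fold change 1.5, SE 0.33; edgeR, adjusted p = 0.166). *Cilp*, cartilage intermediate layer protein, read 53.1, 42.5 and 34.6 CPM in KO and 11.8 to 26.6 CPM in WT (edgeR, adjusted p = 0.17). *Ihh*, the hedgehog ligand of growth cartilage, was lower in KO than in any WT library, with 0.401, 3.54 and 2.41 CPM in KO and 6.31 to 8.01 CPM in WT (edgeR, adjusted p = 0.234). *Prg4*, lubricin, read 319 CPM in KO replicate 1, against 18.8 and 40.1 CPM in the other KO libraries and 3.54 to 23.7 CPM in WT, and KO replicate 2 did not exceed WT replicate 1. None of these passed edgeR's correction over all genes, while DESeq2 called each of them.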
